A study of Mus musculus with 208 samples.

Results

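The vesicular glutamate transporter gene Slc17a7 and 7 further genes of cortical excitatory neurons, Nrn1, Igfn1, Neurod6, Neurod2, Tbr1, Rorb and Fezf2, were followed in RNA of the mouse striatum. They are 8 of the 39179 Ensembl gene IDs measured. The genes were chosen from a difference between Q92 and Q20 mice at 6 months in these same libraries, so their values in that comparison are given as a description, with no test.

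PolyA RNA from the striatum of C57BL/6 mice gave 144 knock-in and 64 wild-type libraries, in 26 groups of 8. In the 18 knock-in groups every animal was heterozygous for an Htt allele with a CAG repeat of stated length, named Q20, Q80, Q92, Q111, Q140 and Q175 after that length, and was taken at 2, 6 or 10 months of age. The other lines were compared with Q20, whose repeat is the shortest. The 8 wild-type groups were housed with Q20 mice at 2 and 10 months and with each of the 6 lines at 6 months. Both sexes were present in each age, with 27 females and 29 males at 2 months, 48 of each at 6 months, and 29 females and 27 males at 10 months. Libraries are named below by sex and number, such as F2 or M1. The labels number them within each sex and do not say whether a sample was 1 animal, so the p-values below measure only the spread between libraries.

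Excitatory neurons of the cortex use glutamate as their transmitter, and their cell bodies lie outside the striatum, which receives their axons. The medium spiny neurons that make up most of the striatum are inhibitory, and their progenitors express a different set of transcription factors. Slc17a7 encodes VGLUT1, which fills synaptic vesicles with glutamate. Neurod6 and Neurod2 are basic helix-loop-helix transcription factors of newly made and mature excitatory neurons of the cortex and hippocampus, and Tbr1 is a T-box factor of early-born cortical neurons, above all those of layer 6. Fezf2 is a zinc finger factor that specifies neurons of layer 5 projecting below the forebrain. Rorb is a retinoid-related nuclear receptor that marks layer 4 in the cortex and is also expressed in the mouse thalamus. Nrn1 encodes neuritin, a membrane-anchored protein induced by activity that promotes neurite growth. Igfn1 encodes a protein with immunoglobulin-like and fibronectin type III domains, known from skeletal muscle.

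Promoter sequences are shown for the 3 transcription factor genes whose levels moved together most closely (Tbr1, Neurod2 and Neurod6) and for Rorb, whose level did not move with theirs. Each runs 5′ to 3′ on the gene's own strand, from 250 bases before to 50 bases after the start of the gene in RefSeq's annotation of GRCm38.p6. They lie at chr2:61804203-61804502 on the plus strand (Tbr1), chr11:98329596-98329895 on the minus strand (Neurod2), chr6:55681214-55681513 on the minus strand (Neurod6) and chr19:19111147-19111446 on the minus strand (the first of 2 Rorb entries). Capitals mark a match to CAGATG, an E-box bound by NeuroD proteins.
Tbr1: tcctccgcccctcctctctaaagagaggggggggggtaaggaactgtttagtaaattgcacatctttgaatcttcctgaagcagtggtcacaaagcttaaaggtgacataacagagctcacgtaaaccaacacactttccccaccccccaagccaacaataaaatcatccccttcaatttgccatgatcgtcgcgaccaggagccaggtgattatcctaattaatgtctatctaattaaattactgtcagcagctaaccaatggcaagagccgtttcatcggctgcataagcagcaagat
Neurod2: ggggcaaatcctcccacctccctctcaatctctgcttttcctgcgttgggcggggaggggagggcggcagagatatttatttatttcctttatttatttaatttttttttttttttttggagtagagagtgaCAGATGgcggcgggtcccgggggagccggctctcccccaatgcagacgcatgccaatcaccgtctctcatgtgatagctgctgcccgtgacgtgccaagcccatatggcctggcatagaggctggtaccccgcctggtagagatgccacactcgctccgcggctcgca
Neurod6: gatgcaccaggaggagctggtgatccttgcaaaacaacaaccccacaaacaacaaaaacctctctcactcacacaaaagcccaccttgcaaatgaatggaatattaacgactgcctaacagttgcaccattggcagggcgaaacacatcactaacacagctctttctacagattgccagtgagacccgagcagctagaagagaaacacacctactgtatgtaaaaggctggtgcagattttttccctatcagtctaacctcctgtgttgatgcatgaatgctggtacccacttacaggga
Rorb: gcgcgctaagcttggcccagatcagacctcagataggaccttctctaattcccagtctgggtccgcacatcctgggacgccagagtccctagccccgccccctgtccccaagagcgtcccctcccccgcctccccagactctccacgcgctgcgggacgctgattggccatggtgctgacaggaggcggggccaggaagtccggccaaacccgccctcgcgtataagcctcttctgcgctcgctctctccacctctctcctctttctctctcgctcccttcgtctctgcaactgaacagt
RefSeq entries were found for 7 of the 8 genes, all but Nrn1. CAGATG, the T-box half-site GGTGTGA and the ROR half-site AGGTCA were searched on both strands. Neurod2 held the one match, a CAGATG that starts at base 133 of the stretch shown. Among all 32851 promoters of this length, 17.2% held CAGATG on either strand, 3.98% held GGTGTGA and 16.3% held AGGTCA. The C and G content differed between genes that moved together, at 46.0% for Tbr1, 46.3% for Neurod6 and 55.3% for Neurod2, and it was 63.7% for Rorb.

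Total counts ran from 29.1 to 49.6 M per library, with a median of 35.7 M. Medium spiny neuron genes were abundant in every library: the summed level of 12 of them, such as Ppp1r1b, Drd1 and Adora2a, ran from 3839 to 11676 CPM (the count relative to the size of the TMM-scaled library). At 2 months 5 libraries correlated with the others of their age at a median under 0.97 (1 of Q80, 2 of Q92 and 2 of Q20), and 1 Q80 library labelled male held no counts of the Y-linked genes. Neither set moved the correlations or the numbers of genes called below except where stated.

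Slc17a7 was the most abundant of the 8 genes by length-scaled level, with a median of 13.5 FPKM over all libraries. Nrn1 had 4.96, Rorb 2.25, Fezf2 1.13, Neurod6 1.0, Tbr1 0.958, Neurod2 0.581 and Igfn1 0.0940 FPKM. In CPM the lowest, median and highest library had 6.19, 39.8 and 403 for Slc17a7, a range of 65.1-fold. In bulk tissue, fewer cells of a type and less RNA per cell cannot be told apart, which holds for each level below.

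Tbr1 ran from 0.790 through a median of 3.71 to 42.7 CPM. Neurod2 ran from 0.256 through 1.82 to 23.1 CPM, the widest range of the 7 genes detected in every library, at 90.1-fold. Neurod6 ran from 0.288 through 2.11 to 15.5 CPM. All 3 transcription factors were highest in 1 library, F2 of Q92 at 6 months. The same library was also the highest for Slc17a7, Igfn1 and Fezf2.

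Fezf2 had a narrower range, with 1.28, 2.63 and 6.56 CPM in the lowest, median and highest library. Igfn1 had 0, 0.448 and 15.1 CPM, and its median count was 17 per library. Its 1 library with no count, of Q20 at 2 months, allows a level of up to 0.0900 CPM (3 counts), for counting error only. Because of these low counts its single-library levels carry a larger counting error than those of the other genes.

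Nrn1 ran from 1.70 through 8.0 to 57.0 CPM. Rorb had the highest floor relative to its median and the narrowest range of the 8, with 14.1, 20.2 and 52.6 CPM and a 3.73-fold span. Both were highest in the library F2 of Q80 at 10 months, where Tbr1 was at 2.36 CPM, below its median.

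**Figure D1:**
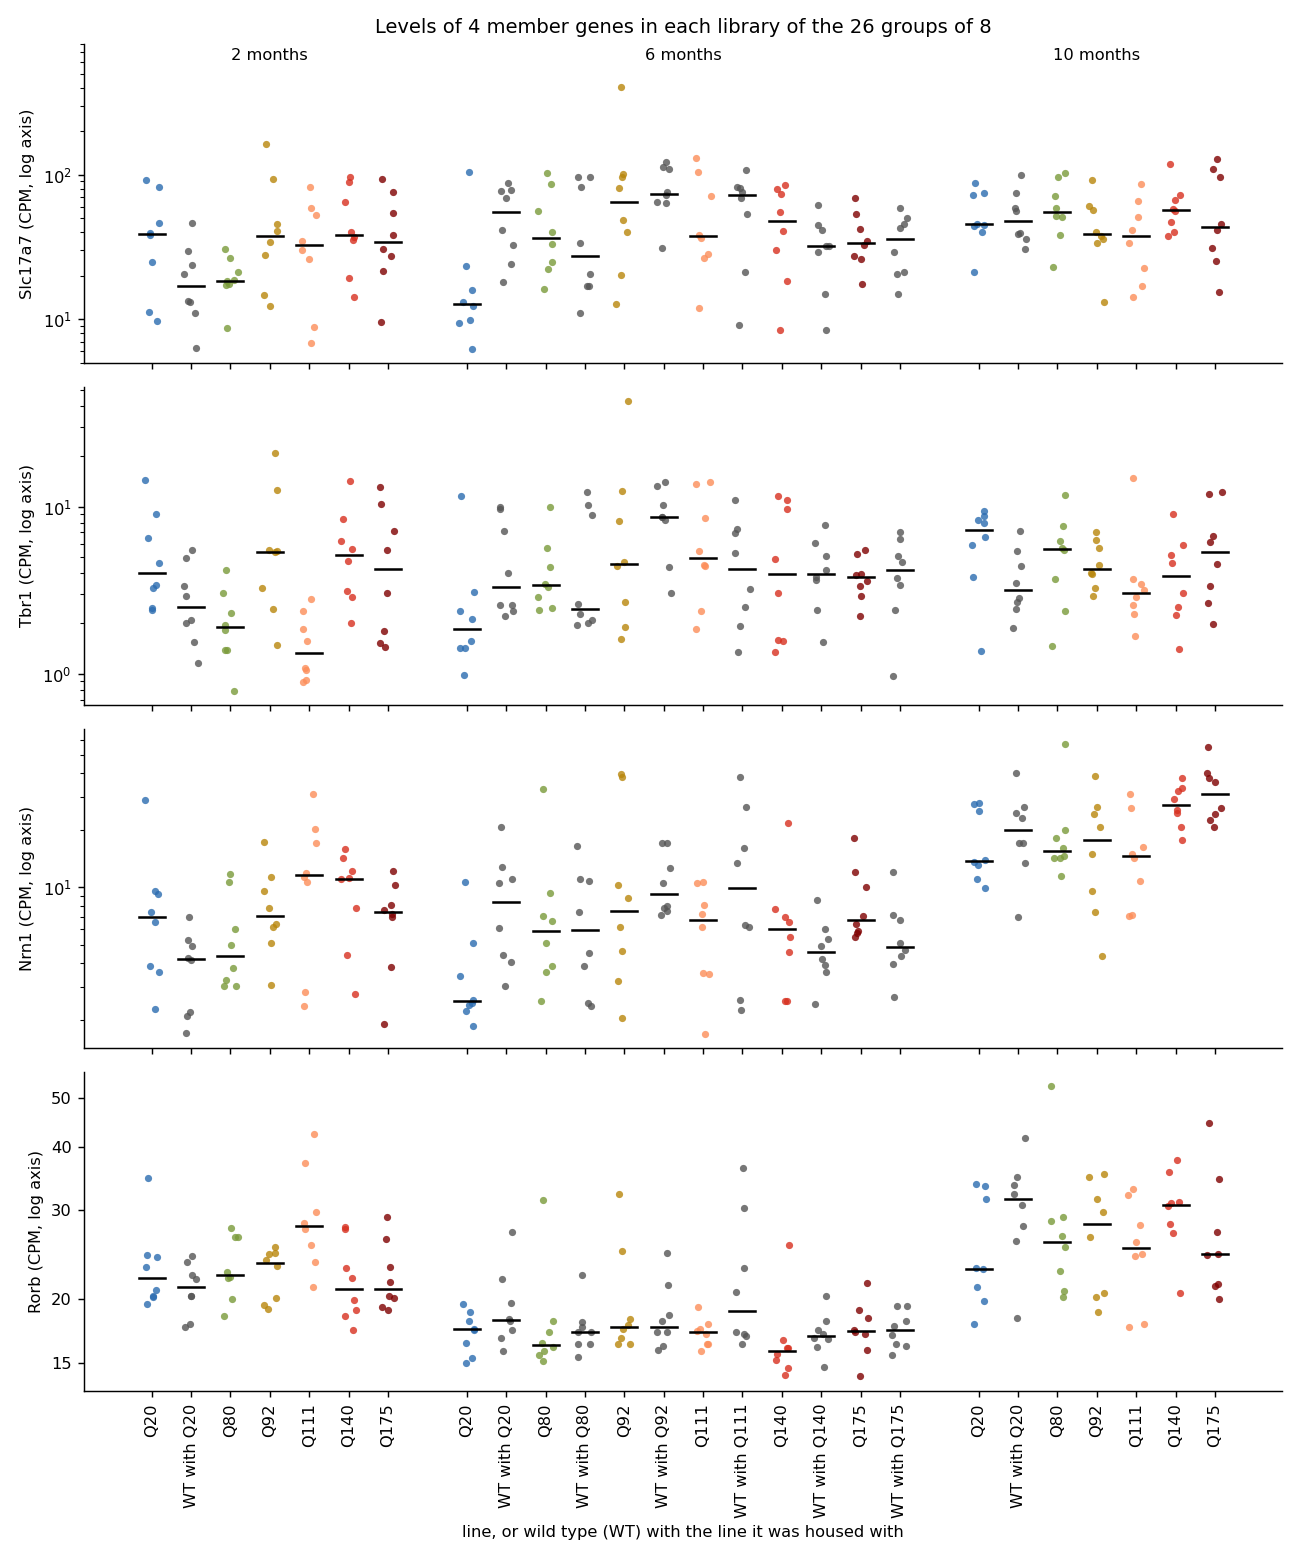
Levels of Slc17a7, Tbr1, Nrn1 and Rorb in CPM on log axes, in each library (points) with the median of each group of 8 (bars), by age, line and housing of the wild types (WT, grey). The Slc17a7 medians run from 12.7 CPM in Q20 to 73.8 CPM in the wild types housed with Q92, both at 6 months, and the points within a group spread more widely than most of its medians differ.

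Libraries of 1 group differed more in these genes than in most others. The median SD of log2 CPM within a group was 0.91 over the 8 genes and 0.14 over the 14538 genes whose mean was 1 CPM or more. Rorb had 0.26 and Fezf2 0.38, the 2 smallest of the 8. Among all genes 0.612% had a larger within-group SD than Slc17a7, at 0.93.

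The order of the group medians was therefore loose. The Slc17a7 median was highest in wild types housed with Q92 at 6 months (73.8 CPM, range 31.1 to 122), then in wild types housed with Q111 (72.1, range 9.13 to 108) and in Q92 mice (64.4, range 12.8 to 403) of that age. It was lowest in Q20 at 6 months (12.7 CPM, range 6.19 to 105), next to the wild types (17, range 6.35 to 46.2) and Q80 (18.5, range 8.71 to 30.5) of 2 months. For each of the 8 genes all 25 pairs of neighbours in that order overlapped in their ranges, as did all 108 pairs of groups of the same age. Neighbours by median are the pairs most likely to overlap. Of all 325 pairs of groups, 31 did not overlap for Nrn1, 17 for Rorb and 9 for Igfn1, and 0 to 3 for the other genes. Those pairs were all of different ages. The share over all genes was not counted.

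The wild types housed with Q92 also had the highest median of Tbr1 (8.71 CPM), Neurod2 (4.03), Neurod6 (4.32), Igfn1 (1.29) and Fezf2 (3.74). The lowest medians of these 5 genes were those of Q111 at 2 months, with 1.33, 0.707, 0.847, 0.170 and 1.87 CPM. For Rorb the same Q111 group stood at the other end of its age, with a median of 27.9 CPM, the fourth highest of the 26. The Rorb median was highest in the wild types of 10 months (31.5 CPM) and lowest in Q140 at 6 months (15.8 CPM).

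The group medians of Nrn1 and Rorb separated by age. All 7 groups of 10 months had higher Nrn1 medians, from 13.7 to 30.9 CPM, than any group of 2 or 6 months, where they ran from 2.51 to 11.6 CPM. For Rorb all 7 groups of 2 months, from 20.9 to 27.9 CPM, and all 7 of 10 months, from 22.9 to 31.5 CPM, had higher medians than the 12 groups of 6 months, from 15.8 to 19.0 CPM. Over single libraries the Nrn1 median was 7.0 CPM at 2 months, 6.20 at 6 months and 20.7 at 10 months. The Tbr1 median was 2.97, 3.93 and 4.21 CPM at those ages. Ages were scaled and fitted apart and held different cohorts, so these differences were not tested. The summed level of 7 thalamus marker genes, described below, also differed by age. Its group medians ran from 65.2 to 242 CPM at 2 months, 62.7 to 157 at 6 months and 209 to 399 at 10 months. The part of thalamic RNA in the age differences was not tested.

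How the genes moved together was taken from deviations of log2 CPM from the mean of each group, over all libraries. Because the genes were chosen for it, the correlations describe these libraries and have no p. Tbr1, Neurod2 and Neurod6 formed the tightest set, each pair at a Pearson r of 0.92 and a Spearman rho of 0.92. Within single ages the same pairs ran between 0.88 (Neurod2 and Tbr1, 10 months) and 0.96 (Neurod6 and Tbr1, 6 months).

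Fezf2 followed this set at 0.64 to 0.69 and Igfn1 at 0.63 to 0.68. Fezf2 and Igfn1 followed each other less closely, at 0.36. Slc17a7 correlated with Tbr1 at 0.76, with Neurod2 at 0.72 and with Neurod6 at 0.71.

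Nrn1 and Rorb followed these transcription factors less. They correlated with each other at 0.71 over all libraries, and at 0.57, 0.75 and 0.88 within 2, 6 and 10 months. Tbr1 had an r of 0.32 with Nrn1, 0.00 within 10 months, and of -0.17 with Rorb. Slc17a7 was at 0.79 with Nrn1 and 0.36 with Rorb. Depth, scaling and any shared admixture are common to all points of these correlations.

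**Figure D2:**
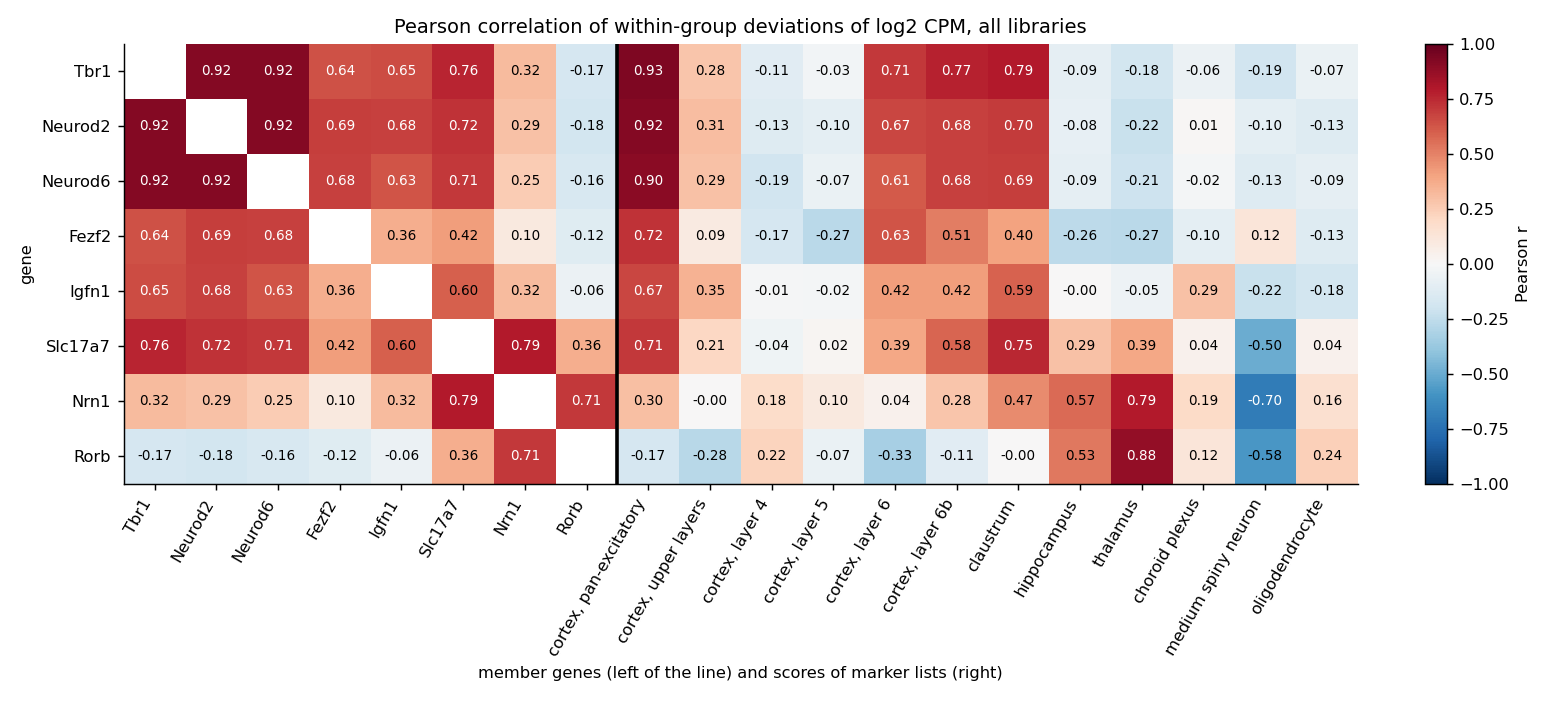
Pearson correlations over all libraries of within-group deviations of log2 CPM, between the 8 genes (left of the line) and between each gene and the scores of 12 marker lists (right), with the value printed in each cell. Tbr1, Neurod2 and Neurod6 correlate at 0.92 and follow the cortical list, while Rorb and Nrn1 correlate with the thalamus list at 0.88 and 0.79.

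The 8 genes were then set beside 12 marker lists of 76 genes for cortical layers, claustrum, hippocampus, thalamus, choroid plexus and striatal cells. Of 8 general markers of cortical excitatory neurons, 6 had an r of at least 0.5 with Tbr1 and all 8 were above 0, with a median of 0.77. Nptx1, a secreted pentraxin of excitatory synapses, was at 0.90. Emx1, a homeobox gene of the cortical primordium, was at 0.80 and was listed at 0 in 2 libraries. Lhx2 was at 0.27 with Tbr1, and at 20.5 CPM it was abundant in every library.

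The markers of single layers followed Tbr1 less. Of the 5 upper-layer, 3 layer 4 and 5 layer 5 genes none reached 0.5 with Tbr1, with list medians of 0.15, -0.05 and -0.03. Many of these genes, such as Lamp5 at a median of 90.5 CPM and Etv1 at 62.4 CPM, were far above the level of Tbr1 in all libraries. In layer 6, 3 of 6 genes reached 0.5 (Rprm 0.67, Sla 0.60 and Ntsr1 0.54), and in layer 6b Ctgf (0.75) and Cplx3 (0.58) did. Of the 4 claustrum genes, Nr4a2, an orphan nuclear receptor, was at 0.91, Ntng2 at 0.61 and Gnb4 at 0.60. Nr2f2 was at -0.02 with Tbr1 and at 0.68 with Rorb.

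Rorb and Nrn1 moved more closely with the thalamus list than with the cortical one. All 7 thalamus genes had an r of at least 0.78 with Rorb, with a median of 0.84, and of at least 0.67 with Nrn1, with a median of 0.75. With Tbr1 all 7 were below 0, with a median of -0.17. Lef1 and Tcf7l2, the transcription factors of Wnt signalling that thalamic neurons keep expressing, were at 0.89 and 0.88 with Rorb. Slc17a6, which encodes VGLUT2, the glutamate transporter of thalamic neurons, was at 0.84 with Nrn1. Both genes were chosen as cortical, and in these libraries they followed the thalamus markers more closely. The tissue their RNA came from was not tested.

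Tbr1 alone accounted for 84.1% of the within-group variance of Neurod6 and 84.7% of that of Neurod2, and adding the score of the thalamus list brought these to 84.3% and 85%. For Rorb the order was the other way round: 77.4% was shared with the thalamus score, and 2.74% with Tbr1. Slc17a7 had 57.8% shared with Tbr1, 15.3% with the thalamus score and 86.4% with the pair. Nrn1 shared 10.0%, 62.4% and 84.0% with the same terms. Igfn1 and Fezf2 reached 42.6% and 43.6% with the pair.

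Single libraries show both patterns in their levels. The library F2 of Q92 at 6 months had 403 CPM of Slc17a7, 42.7 of Tbr1 and 23.1 of Neurod2, with 74.8 CPM summed over the 7 thalamus genes, against a median of 102 CPM over all libraries. The library M1 of the same group had 101 CPM of Slc17a7 with 1.61 of Tbr1 and 0.511 of Neurod2, and its thalamus sum was 756 CPM. Both libraries had high Nrn1, at 39.7 and 37.9 CPM, and the next library of that group had 10.3 CPM.

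The library M2 of Q111 at 2 months had the highest ratio of Slc17a7 to Tbr1, with 81.5 CPM of Slc17a7, 0.923 CPM of Tbr1, a ratio of 88.2, and a thalamus sum ranked 7 from the highest of all libraries. The library F2 of Q80 at 10 months, the highest in Nrn1 (57.0 CPM) and Rorb (52.6 CPM), also had the highest thalamus sum of all, at 989 CPM. The hippocampus list was high in some of these libraries too: its 5 genes summed to 75.4 CPM in M1 of Q92 at 6 months, the highest of all, against a median of 35.8 CPM. That sum is mostly 1 gene, Prox1, with a median of 33.1 CPM and an r of 0.58 with Rorb. The other genes of the list had medians from 0.133 to 1.23 CPM. The libraries of this paragraph and the one before were chosen after their values were seen.

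**Figure D3:**
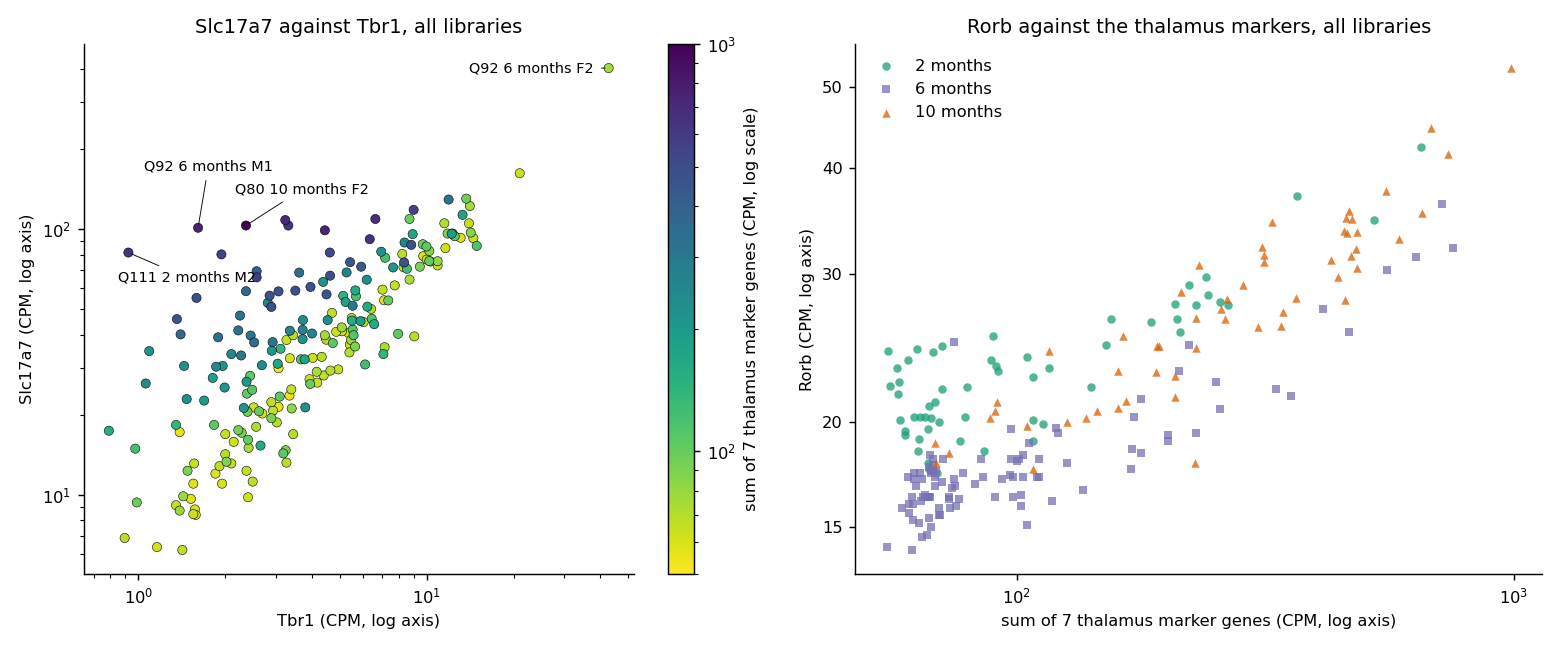
Left, Slc17a7 against Tbr1 in CPM on log axes in all libraries, coloured by the summed CPM of 7 thalamus marker genes. Right, Rorb in CPM against that sum, by age. Libraries far above the main diagonal on the left, such as M2 of Q111 at 2 months (81.5 CPM of Slc17a7, 0.923 CPM of Tbr1), have high thalamus sums, and Rorb climbs with the sum to 52.6 CPM at a sum of 989 CPM.

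Igfn1 had a further pattern. After F2 of Q92 at 6 months (15.1 CPM) its highest levels were 10.7 CPM in M2 of the wild types housed with Q80 and 7.34 CPM in F3 of Q80, both at 6 months. These 2 libraries had the highest sums of the 9 choroid plexus genes, at 5871 and 5822 CPM, against a median of 56.7 CPM and 825 CPM in the next library. Tbr1 was at 8.93 CPM in the first and 3.31 CPM in the second. Across all libraries the r of Igfn1 with the choroid plexus score was 0.29. The part of choroid plexus tissue in the Igfn1 level was not tested.

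Medium spiny neuron genes ran against some of the 8 genes and not others. All 12 had a negative r with Slc17a7 (median -0.39), Nrn1 (median -0.48), Rorb (median -0.39) and Tbr1 (median -0.15). The dopamine receptor gene Drd1 was at -0.65 with Nrn1. Fezf2 had the other sign with the score of this list, at 0.12, and was at 0.29 within 2 months and -0.06 within 10 months. Single genes reached 0.32 (Gpr6) and 0.31 (Penk and Tac1) with Fezf2. Igfn1 was at -0.22 with the score but close to 0 with Drd2 (0.01), Scn4b (0.02) and Pde10a (0.05). The 8 oligodendrocyte genes lay close to 0 with Slc17a7 and Tbr1, with medians of 0.05 and -0.06, and at 0.25 with Rorb. Whether the amounts of cortical, thalamic and striatal tissue in a sample set these levels was not tested.

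The genes most like the set were ranked by their correlation with the mean standardised deviation of the 8 genes, among those 14538 genes. Bdnf, a neurotrophin that cortical neurons carry to the striatum, led with an r of 0.86 and levels from 0.261 through a median of 1.36 to 7.96 CPM. Vxn was at 0.86, Ncald, a neuronal calcium sensor, at 0.83, Nr4a2 at 0.82, and Nxph3, Rtn4r and Efhd2 at 0.81. Prss12 and the vesicular zinc transporter gene Slc30a3 followed at 0.80 and the neuropeptide gene Cck at 0.79. These genes divide as the members do: Vxn had 0.95 with Tbr1 and -0.14 with Rorb, while Cck had 0.53 with Tbr1 and 0.60 with Rorb.

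At the other end stood Isl1 and Ebf1 at -0.47, Klhl13 at -0.46, and Entpd3 and Meis2 at -0.44. Isl1 and Ebf1 are transcription factors of striatal projection neurons in development, and Meis2 is a homeobox gene of the striatum. Their ranges were narrow, such as 11.2 to 23.2 CPM for Isl1.

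The genes of the set were then compared between groups with edgeR's quasi-likelihood test, fitted within each age over all genes with sex as a covariate. A gene counts as called below where its Benjamini-Hochberg adjusted p was under 0.05. Apart from the comparison that chose them, 29 comparisons gave 232 tests of the 8 genes, of which 3 passed. The share of all genes called in these comparisons ran from 0% to 39.9%, and it is given with each below. The members' log2 fold changes had SEs several times those of other genes, for example a median of 0.524 for the 8 genes and 0.0605 over all genes for Q92 against Q20 at 6 months.

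The choosing comparison was Q92 against Q20 at 6 months. Slc17a7 had 12.8, 64.4 and 403 CPM in the lowest, median and highest Q92 library and 6.19, 12.7 and 105 CPM in those of Q20. Its log2 fold change was 2.09 (SE 0.541). Igfn1 had 2.70 (SE 0.686), Nrn1 1.90 (SE 0.520), Tbr1 1.68 (SE 0.529) and Neurod2 1.57 (SE 0.508). Neurod6 (1.49), Fezf2 (0.31) and Rorb (0.22) were also positive. All 8 were thus higher on average in Q92, the comparison they were chosen from. Of all genes 5.99% were called there, and nothing is read from that share for the 8. The ranges of the groups overlapped in each gene.

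1 library carried much of the size of these differences. Without F2 of Q92 the log2 fold changes were 1.27 for Slc17a7, 1.45 for Nrn1, 0.79 for Igfn1, 0.66 for Neurod2 and 0.76 for Tbr1. In Q20 the library M3 stood at 105 CPM of Slc17a7 and 11.5 of Tbr1, above the 23.4 and 3.09 CPM of the next library. 31 cortical genes outside the set had a median log2 fold change of 0.16. Of them 8 were called as higher and 0 as lower, where 5.99% of all genes were called. These calls use the libraries that chose the 8 genes. General cortical markers, which mostly followed Tbr1, made up 5 of them, and nothing is read from that count. The thalamus list had a median of 1.02 with 0 of 7 called, and 10 of 12 medium spiny neuron genes passed as lower, with a list median of -0.29. When the scores of the other cortical and the thalamic genes were held constant, Slc17a7 was at 0.71, Nrn1 at 0.41, Igfn1 at 0.37, and Neurod2 and Tbr1 at 0.19.

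Against their own wild-type cage mates, the same Q92 libraries did not stand out. Slc17a7 averaged 100 ± 127 CPM in Q92 and 81.3 ± 30.9 CPM in the wild types housed with Q92 (SD, n = 8 each), with a log2 fold change of 0.35 (SE 0.511) and 3 of 8 Q92 libraries above the wild-type mean. Neurod6 was at -0.02 and the other 6 genes lay between 0.07 and 0.40. None of the 8 passed in edgeR (smallest adjusted p 0.999), with 0 at an unadjusted p under 0.05 and 0 in DESeq2, and 0.0510% of all genes were called. This comparison shares the Q92 libraries with the one that chose the genes.

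Q20 stood below its own wild-type cage mates in 7 of the 8 genes, without passing the test. Slc17a7 averaged 24.3 ± 32.9 CPM in Q20 and 53.5 ± 27.4 CPM in wild types (SD, n = 8 each), a log2 fold change of -1.15 (SE 0.529, edgeR adjusted p = 0.844), and 1 of 8 Q20 libraries lay above the wild-type mean. Nrn1 was at -1.25, Igfn1 at -1.29, Neurod6 at -0.80, Tbr1 at -0.72 and Neurod2 at -0.68. None of the 8 was called, 2 had an unadjusted p under 0.05, DESeq2 called 0, and 0.0227% of all genes were called. The Q20 libraries are those of the choosing comparison.

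In their average Slc17a7 level the other lines at 6 months lay between Q20 and Q92. Against Q20 the log2 fold changes of Slc17a7 were 0.99 in Q80, 1.21 in Q111, 1.01 in Q140 and 0.64 in Q175. No gene of the set passed in these 4 comparisons, where 0.289% of all genes were called for Q80, 12.8% for Q111, 27.9% for Q140 and 36.2% for Q175. At an unadjusted p under 0.05 there were 2, 3, 0 and 1 of the 8 genes in that order of lines, and DESeq2 called 1, Nrn1 in Q175. Without the library M3 of Q20, Slc17a7, Neurod6, Neurod2 and Tbr1 passed in both Q111 and Q140, and Slc17a7 and Nrn1 in Q175. M3 had the highest mean of the 8 genes in Q20, so leaving it out lowers the Q20 level. Nothing is read from those calls. All 5 comparisons with Q20 at this age share its 8 libraries, which are also those of the choosing comparison.

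Against their own cage mates the Slc17a7 values were 0.05 in Q80, -0.17 in Q111, 0.53 in Q140 and 0.08 in Q175. No gene passed in Q80, Q140 or Q175, where 0.0510%, 24.2% and 31.8% of all genes were called. None of these 24 tests had an unadjusted p under 0.05, and DESeq2 called none. In Q111, where 8.94% of all genes were called, Rorb was the 1 gene of the 8 that passed.

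**Figure D4:**
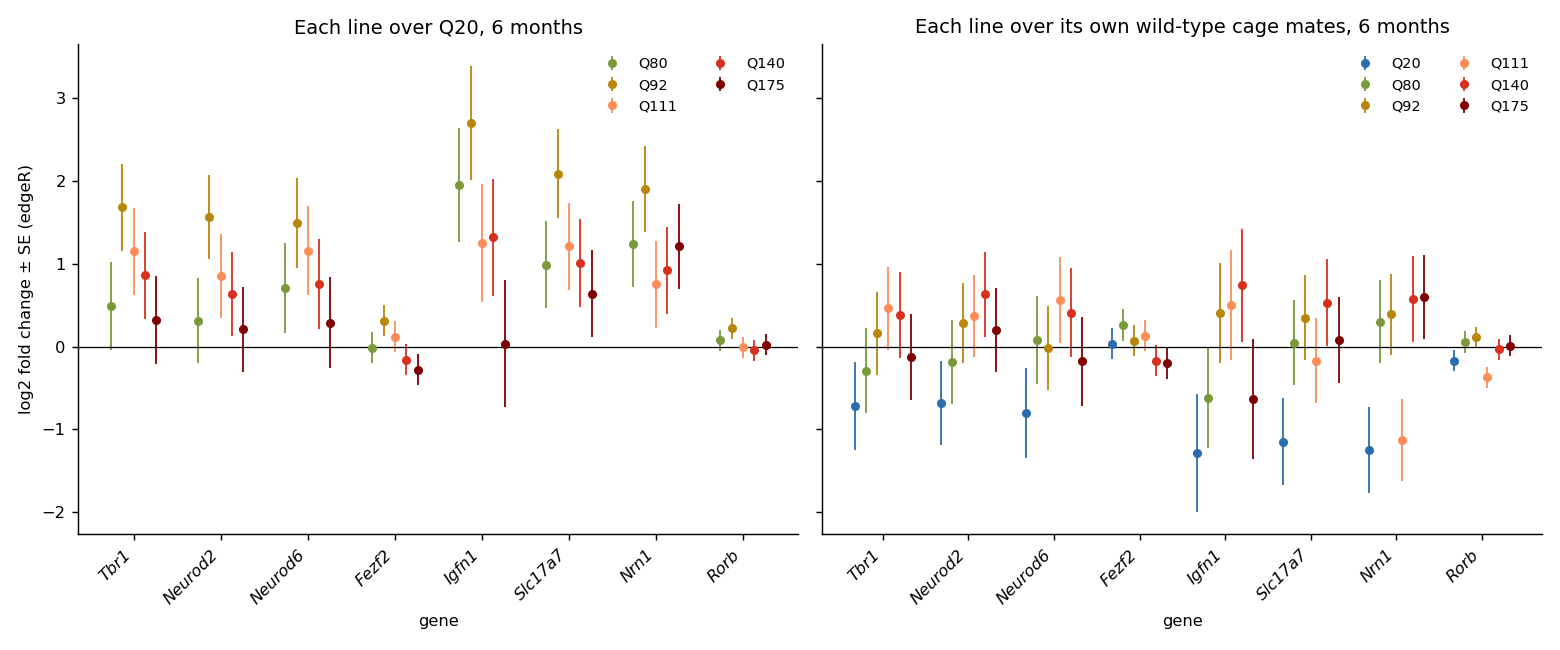
Log2 fold changes with their SE (bars) of the 8 genes at 6 months, each line over Q20 (left) and over its own wild-type cage mates (right), 8 libraries in each group. Most points on the left lie above 0, up to 2.70 for Igfn1 in Q92, while on the right the points lie on both sides of 0, down to -1.29 for Igfn1 in Q20 and -1.13 for Nrn1 in Q111.

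Rorb had 15.8, 17.2 and 19.3 CPM in the lowest, median and highest Q111 library, against 16.3, 19.0 and 36.3 CPM in their wild-type cage mates. The Q111 libraries lay close together, and 4 of the wild types, F3 (36.3 CPM), M1 (30.3), F4 (23) and M2 (20.7), lay above all of them. The log2 fold change was -0.37 (SE 0.127, edgeR adjusted p = 0.0487), with 0 of 8 Q111 libraries above the wild-type mean. The thalamus sum ran from 58.8 to 202 CPM in Q111, against 212 CPM and above in those 4 wild types. Of the 7 thalamus genes Tcf7l2 (-1.42) and Synpo2 (-0.88) passed as lower and the list's median was -1.42. With the score of the thalamic genes held constant, an alternative added after the data were seen, Rorb was at -0.07 and did not pass (edgeR adjusted p = 0.546).

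Nrn1 in the same comparison averaged 6.43 ± 3.33 CPM in Q111 and 13.9 ± 12.7 CPM in wild types, at -1.13 (SE 0.495, edgeR adjusted p = 0.158). The Rorb call ended without F4 of the wild types (adjusted p = 0.0756 in edgeR) and without M4 of Q111 (adjusted p = 0.0704). It also ended without the filter on low counts (adjusted p = 0.0859 in edgeR), in limma on FPKM (adjusted p = 0.0941), with the score of the other cortical genes held constant (adjusted p = 0.0533 in edgeR) and in the edgeR fit of only these groups (adjusted p = 0.189). It held in DESeq2 (adjusted p = 0.0372).

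The 6 wild-type groups of 6 months have the same labelled genotype, age and tissue and differ in the line they were housed with. Their Slc17a7 medians were 55.4 CPM with Q20, 27.2 with Q80, 73.8 with Q92, 72.1 with Q111, 32.3 with Q140 and 35.9 with Q175. In edgeR's test of any difference among them 0 of the 8 genes passed (smallest adjusted p 0.112), 3 had an unadjusted p under 0.05 and DESeq2 called 1, Igfn1, where 1.34% of all genes were called in edgeR.

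At 2 months no gene of the set passed between lines. Against Q20, none was called in Q80, Q92, Q111, Q140 or Q175, where 0.0118%, 0%, 0.0176%, 0% and 0.218% of all genes were called. At an unadjusted p under 0.05 there were 3, 0, 6, 0 and 1 of the 8 genes, and DESeq2 called none. Q111 had the largest differences: Tbr1 had 0.896, 1.33 and 2.81 CPM in the lowest, median and highest Q111 library, against 2.40, 4.0 and 14.5 CPM in Q20. Its log2 fold change was -1.86 (SE 0.463, edgeR adjusted p = 0.476), with 0 of 8 Q111 libraries above the Q20 mean.

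In the same libraries Rorb was at 0.33 and Nrn1 at 0.71. The 7 thalamus genes had a median of 0.96 with none called, and their sum had a median of 242 CPM in Q111 and 66.8 CPM in Q20. Neurod6 (-1.65), Neurod2 (-1.47), Igfn1 (-1.07) and Fezf2 (-0.74) were negative as Tbr1 was, and Slc17a7 was at -0.01.

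Q20 against wild type at 2 months had 8 of 8 genes positive and none called, with 3 at an unadjusted p under 0.05, 0 in DESeq2 and 0% of all genes called. Slc17a7 was at 1.0 (SE 0.472) and Nrn1 at 1.11 (SE 0.444), the opposite sign to the Q20 comparison at 6 months. At 10 months the same comparison gave -0.01 for Slc17a7 and -0.25 for Nrn1, with 0 of 8 genes called by edgeR or DESeq2, 0 at an unadjusted p under 0.05 and 0.0116% of all genes called. The difference between ages was not tested.

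Between females and males at 2 months Igfn1 was the 1 gene called, where 0.923% of all genes were. It had 0.158, 0.355 and 1.18 CPM in the lowest, median and highest of 27 females, against 0, 0.195 and 0.712 CPM in 29 males. The ranges overlapped, and the log2 fold change was 0.89 (SE 0.228, edgeR adjusted p = 0.0372). Neurod2 (0.71), Slc17a7 (0.65), Tbr1 (0.62) and Neurod6 (0.58) were positive as well and were not called. With the score of the other cortical genes held constant Igfn1 was at 0.57 and did not pass (edgeR adjusted p = 0.331). The call also ended without the libraries that stand apart (0.66, adjusted p = 0.0534 in edgeR), and without F1 of Q175, F4 of Q92 or F3 of Q20, with adjusted p values between 0.0551 and 0.0656.

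At 6 and 10 months no gene of the set was called between the sexes, in edgeR or DESeq2, with 0 of 8 at an unadjusted p under 0.05 at both ages, where 18.5% and 1.28% of all genes were called. Igfn1 was at 0.15 at 6 months and 0.24 at 10 months.

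Nrn1 was the gene of the set that followed repeat length, at 10 months. It had a median of 13.7 CPM in Q20, 15.4 in Q80, 17.9 in Q92, 14.6 in Q111, 27.2 in Q140 and 30.9 in Q175. The Q175 libraries ran from 20.7 to 54.5 CPM and the Q20 libraries from 9.94 to 27.9 CPM, so that the groups overlapped, while 8 of 8 Q175 and 8 of 8 Q140 libraries lay above the Q20 mean of 17.7 CPM. The trend was 0.06 in log2 per 10 repeats (SE 0.0203, edgeR adjusted p = 0.0255). It was the 1 call among the 8 genes, where 32.8% of all genes were called.

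The trend depended on the longest repeat. Without Q175 it was 0.04 and did not pass (edgeR adjusted p = 0.371), and without Q20 it was 0.09 and passed (edgeR adjusted p = 0.0361). Q175 against Q20 alone was at 0.88 (SE 0.350, edgeR adjusted p = 0.0600), and Q140 at 0.63 (edgeR adjusted p = 0.197).

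Within groups of 10 months Nrn1 had an r of 0.92 with the thalamus score and -0.72 with that of the medium spiny neuron genes. None of the 7 thalamus genes was called in edgeR in Q175 or Q140 against Q20 or in the trend. Their median log2 fold changes were -0.03 in Q175 and 0.45 in Q140, and 0.01 per 10 repeats in the trend. Their sums had medians of 219 CPM in Q175 and 396 CPM in Q140, against 209 CPM in Q20. Of the 12 medium spiny neuron genes 11 were called as lower in Q175, in Q140 and in the trend, with medians of -0.69, -0.67 and -0.06. Their sums had medians of 4584 CPM in Q175 and 4489 CPM in Q140, against 7993 CPM in Q20. The part of these lower levels in the Nrn1 trend was not tested. With the thalamic score held constant, the Nrn1 value of Q175 against Q20 was 0.87 (edgeR adjusted p = 2.45e-06). In the main fit it was 0.88 (edgeR adjusted p = 0.0600). The trend was 0.05 with that score (edgeR adjusted p = 2.07e-04). Both fits with the score were added after the data were seen, and the cause of the Nrn1 difference was not tested.

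**Figure D5:**
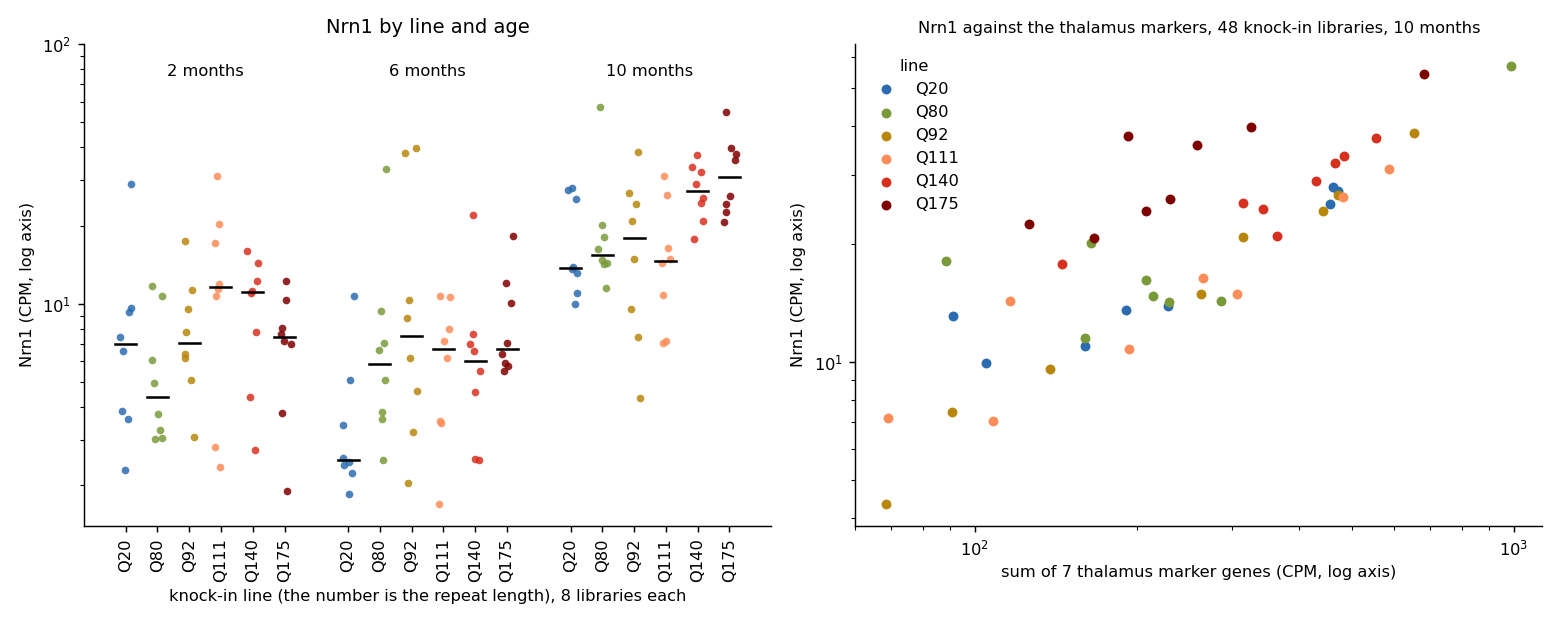
Left, Nrn1 in CPM on a log axis in the 8 libraries of each knock-in line at 2, 6 and 10 months, with group medians (bars). Right, Nrn1 against the summed CPM of 7 thalamus genes in the 48 knock-in libraries of 10 months, by line. At 10 months the medians run from 13.7 CPM in Q20 to 30.9 CPM in Q175, and on the right the Q175 libraries lie above most others of a like thalamus sum.

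At the other ages and in the other genes the trend was not called. At 2 months it was called in 0 of 8 genes and 0.354% of all genes, and at 6 months in 0 of 8 and 39.9%, with 0 of 8 at an unadjusted p under 0.05 and 0 in DESeq2 at both ages. At 6 months Nrn1 in Q175 had 5.49, 6.73 and 18.2 CPM in the lowest, median and highest library, against 1.86, 2.51 and 10.7 CPM in Q20, and 8 of 8 Q175 libraries lay above the Q20 mean of 3.83 CPM. The log2 fold change was 1.21 (SE 0.518, edgeR adjusted p = 0.0596). It was 0.60 (SE 0.503) against Q175's own cage mates, and 0.56 against Q20 with the thalamic score held constant.

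In the remaining comparisons of 10 months no gene of the set was called. These were Q80, Q92, Q111, Q140 and Q175 against Q20, where 0.122%, 1.12%, 12.5%, 22.5% and 24.5% of all genes were called. DESeq2 called none of the 8 genes in them, and 1, Nrn1 in Q175, had an unadjusted p under 0.05. In Q92, Q111 and Q140 Neurod2, Tbr1 and Neurod6 were all negative, between -0.64 (Tbr1 in Q140) and -0.21 (Neurod2 in Q140). Their signs were mixed in the other lines. In Q175 Neurod2 was at 0.76, Tbr1 at -0.10 and Neurod6 at -0.23, and in Q80 they were at 0.09, -0.25 and 0.04. In Q111 the library M3 had 14.9 CPM of Tbr1, against 1.69 to 3.71 CPM in the others. With all libraries Tbr1 was at -0.61 against Q20 (edgeR adjusted p = 0.403). Without M3, the highest library of its group, Tbr1 passed as lower (edgeR adjusted p = 0.0354). Leaving out the highest library lowers the Q111 level, so nothing is read from that call.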

How the data were processed

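PolyA RNA of the striatum was sequenced on Illumina instruments. Base calling used CASAVA 1.8.2 per the submitters' processing notes. No aligner, counting tool or build is named by the labels or file headers used here. The authors deposited estimated counts per Ensembl gene ID, of which 32.7% of the values above 0 were not whole, and these were rounded. The FPKM values were deposited by the authors as well, scaled by gene length and library size, and were used for comparing genes within a library and for 1 alternative. Symbols came from a gene name table for 37607 of 39179 IDs (96.0%).

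Within each age, edgeR 4.0.16 (R 4.3.3) fitted all groups with sex as a covariate after TMM scaling and a filter (minimum count 10, minimum total 15), which left 17006, 17642 and 17170 genes at 2, 6 and 10 months. Quasi-likelihood tests were adjusted by Benjamini-Hochberg over all genes tested. The trend used repeat length in knock-in groups, per 10 repeats. An SE is the log2 fold change divided by the root of the F statistic. CPM used the TMM-scaled library, and correlations used log2 CPM (prior count 1) less the group mean. The fits and the ranking were tested on simulated data. Alternatives were DESeq2 1.42.0, RLE size factors, no filter, limma 3.58.1 on log2(FPKM + 1), the replicate block, fits of only the groups compared, marker scores as covariates and left-out libraries.

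The 8 genes, the marker lists and the tests were chosen with earlier results of these data known. Named genes outside them are the 10 most and 5 least like the set, plus list genes. Intervals and floors cover counting error only, and a library of 29.1 to 49.6 M counts gives a median of 17 counts for Igfn1, so that its level is the least precise.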

Additional observations from a re-analysis of the deposited data

Results flagged for a closer look

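Each gene was checked in each group of 8 for a library far from the other 7. Over 8 genes and 26 groups 19 such values were found, several of them in the same library. Chance alone gives about 5% of all checks.

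In Q20 at 6 months M3 was the high library for 4 genes, with 105 CPM of Slc17a7 (others 6.19 to 23.4), 11.5 of Tbr1 (others 0.987 to 3.09), 7.26 of Neurod2 (others 0.742 to 1.5) and 6.13 of Neurod6 (others 0.464 to 1.38). In the same group M2 was low in Igfn1, at 0.0235 CPM (others 0.238 to 0.988). In Q111 at 10 months M3 was high in Tbr1 at 14.9 CPM (others 1.69 to 3.71), Neurod6 at 10.6 (others 0.719 to 2.54) and Fezf2 at 5.10 (others 1.28 to 2.16).

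In Q80 at 10 months F2 was high in Nrn1 at 57.0 CPM (others 11.5 to 20.1) and Rorb at 52.6 (others 20.2 to 29.1). In Q80 at 6 months F3 was high in Igfn1 at 7.34 CPM (others 0.365 to 1.21) and Rorb at 31.4 (others 15.1 to 18.1). Rorb was also high in F4 of Q20 at 2 months, at 34.7 CPM (others 19.6 to 24.4), in M2 of Q140 at 6 months, at 25.6 (others 14.2 to 16.6), and in M4 of the wild types housed with Q80, at 22.3 (others 15.4 to 18).

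The remaining 4 values were low. Slc17a7 was at 8.71 CPM in M3 of Q80 at 2 months (others 17.2 to 30.5), the library labelled male without counts of Y-linked genes, and Igfn1 at 0.103 in M2 of the wild types housed with Q140 (others 0.415 to 0.957). Neurod6 was at 0.529 CPM in M1 of Q92 at 10 months (others 1.59 to 3.29), and Fezf2 at 1.38 in M2 of Q20 at 10 months (others 2.27 to 3.33).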

How the results depend on the processing

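Values are numbers of the 8 genes called unless named otherwise, and no result was reversed in any alternative. RLE size factors (30 comparisons) and the replicate block (27) changed no number of calls. Under the block there was 1 for Q111 against its cage mates and 1 for the trend at 10 months. Same-numbered libraries of 1 sex correlated at a median r of -0.025 at 2 months, 0.117 at 6 months and 0.026 at 10 months, against 0.005, -0.031 and -0.004 for other numbers. At 6 months 54.2% of same-numbered pairs were above 0.1, against 20.5% of others. As not every pair was, the numbers were not taken as pairs. At 2 months the female against male call became 0 without the filter, with the cortical score, with both scores, without the libraries apart and in limma, and it was 0 to 1 over single left-out libraries. At 6 months Q175 against Q20 gave 1 with the cortical score, 1 with the thalamic score, 2 with both, and 1 each in DESeq2, limma and the fit of only these groups (0 to 2 over left-out libraries). Q140 against Q20 gave 2 with the cortical score, 2 with both, 1 in limma and 1 in the fit of only these groups (0 to 4). Q111 against Q20 gave 1 in limma (0 to 4). In Q92 against Q20, which chose the genes and serves as a description, the number of calls differed between settings, and nothing is read from it. Against cage mates, Q175 gave 1 in the fit of only these groups, and Q140 gave 1 with the cortical score and 1 with both. Q111 gave 0 without the filter, with each score, with both, in limma, in the fit of only these groups and without M4 of Q111 or F4 of the wild types (0 to 0). The wild-type groups gave 1 in DESeq2. The sex test at 6 months gave 1 with the cortical score and 1 with both, and the trend gave 1, 3 with both and 1 without Q20. At 10 months Q175 against Q20 gave 1 with the cortical score, 1 with the thalamic score, 2 with both, 1 in limma and 1 in the fit of only these groups (0 to 1). Q140 against Q20 gave 1 with both scores, and Q111 against Q20 gave 0 to 1 over left-out libraries. The trend gave 2 with the cortical score, 2 with both and 0 without Q175. Only the library with the highest mean of the 8 genes in each group was left out, 1 at a time. The cause of these changes was not tested. The thalamic scores were chosen after seeing the data. The correlation of Tbr1, Neurod2 and Neurod6 ran from 0.88 to 0.94 over 4 alternatives, and that of Tbr1 and Rorb from -0.20 to -0.14.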
